A study of Mus musculus with 3 samples.

Results

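The replication-dependent histone genes were followed in NB490, a mouse line of pancreatic cancer cells, as all gene models whose symbol begins with Hist1h, Hist2h, Hist3h or Hist4h. There were 68 such models of 22658 in all, under 65 different symbols: 6 of class H1, 18 of H2a, 19 of H2b, 12 of H3 and 13 of H4. On chromosome 13 lay 54 of them (Hist1), on chromosome 3 lay 10 (Hist2), on chromosome 11 lay 3 (Hist3), and Hist4h4 lay alone on chromosome 6. Transcription was measured by Bru-seq, in which RNA made while bromouridine is present (2 mM for 30 min) is captured with an antibody and sequenced. All cells carried an inducible PDX1 shRNA, a short hairpin RNA that doxycycline switches on; PDX1 is a transcription factor of pancreas development. Puromycin was used to select cells with stable expression of it. Library 1 came from uninduced cells, a second from cells given doxycycline for 48 h, and the last from a grown-out culture with over 3 weeks of the drug. With 1 library a condition, no test across samples could be run, and each difference is one between libraries. Cells without this shRNA that were given doxycycline are not analysed here, so an effect of the drug and one of the shRNA cannot be told apart. The RNA of the targeted gene itself, Pdx1, stood at 1.59, 1.05 and 1.41 RPKM (the unit is explained below) in the order above: 1.51-fold lower at 48 h (1.28 to 1.77), and after grow-out 1.12-fold lower with an interval that reached no change (0.961 to 1.30). Since the hairpin targets mature transcripts, newly made RNA checks the labels only in part.

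Histones are the proteins around which DNA is wrapped. Classes H2A, H2B, H3 and H4 form the nucleosome core, and the linker histone H1 binds where DNA enters and leaves it. Most of their genes are short, lack introns, stand in clusters and are transcribed mainly while DNA is copied. Their usual mRNA ends in a stem-loop bound by the stem-loop binding protein and not in a poly(A) tail. Some of these genes can also give longer, polyadenylated transcripts that extend past the stem-loop. H2a and H2b genes often stand head to head and share the DNA between them as a promoter.

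Levels are RPKM (reads per kilobase of model, scaled to the library read total), and sums are RPM (summed reads scaled to that total, with no division by length). The read totals were 51006774 for the uninduced, 48418864 for the 48 h and 41632296 for the grown-out library. The histone models held little of this: 4590.2, 2768.1 and 4104.1 reads, or 0.0114%, 0.00732% and 0.0124% of all gene model reads. As deposited, no member overlapped another gene model on its own strand, and none overlapped one on the opposite strand. The deposited rows may already have been cut apart, so this says little about overlap of the full genes. The Hist1h2be row ends at 23712496 and Hist1h1e starts at 23712497, although the span given for Hist1h2be (37455 bp) exceeds its counted 36958 bp. The labels say that strand was kept in certain samples, without saying here which. A member was counted as measured where its mean over the 3 libraries was at least 0.5 RPKM, its model at least 300 bp long and its symbol unique, which 35 of the 68 met. The mean combines all libraries, so a member near the minimum can have passed through its highest library alone. Just inside lay Hist1h3g at a mean of 0.505 RPKM and Hist1h3c at 0.525 RPKM, and just outside lay Hist1h2ac and Hist1h3b at 0.421 and 0.420 RPKM. Of the other 33, 9 were at 0 in all libraries. These were Hist1h2bn, the testis genes Hist1h2aa and Hist1h2ba, and the paired rows of Hist1h2b, Hist1h2ao and Hist2h2aa1, whose symbols occur more than once in the files. The rows of Hist1h2ao count only 121 bp and those of Hist2h2aa1 185 bp, beside RefSeq genes of 552 and 556 bp. Most of these 2 genes was thus not counted, and 0 reads do not show that they were silent. Histone genes of a class are close to identical in their coding sequence. How reads that match several copies were treated is not given in the sources used here, so the level of a single core histone gene is uncertain. Sums over a class do not recover reads lost in this way. Brackets give exact Poisson intervals for levels and exact conditional binomial intervals for folds, both at 95%. These intervals cover counting error only, on counts rounded to whole reads, and leave out variation between cultures. "Beyond counting error" means that the interval of the fold excluded no change, and "past 2-fold" means in addition a log2 ratio of RPKM plus 0.05 of that size.

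Upstream sequence was matched by symbol or synonym to the RefSeq tables of mouse build GRCm38.p6, where 64 of the 65 symbols had 1 gene entry and 58 a promoter entry. The stretches that follow are the 250 bases before the annotated start, shown 5′ to 3′ for 3 members that were past 2-fold lower at 48 h and for 3 that were not lower, from classes H1, H2b and H4. Capitals mark the letters of the CCAAT box (CCAAT, on the other strand read as ATTGG), of a TATA box (TATAAA, on the other strand read as TTTATA) and of the octamer (ATTTGCAT, on the other strand read as ATGCAAAT). The members are Hist2h3c1 (chr3:96246435-96246684, plus strand), Hist3h2a (chr11:58954435-58954684, plus strand), Hist1h3e (chr13:23562386-23562635, minus strand), Hist1h1e (chr13:23622559-23622808, minus strand), Hist2h2bb (chr3:96269450-96269699, plus strand) and Hist1h4f (chr13:23551669-23551918, minus strand).
Hist2h3c1: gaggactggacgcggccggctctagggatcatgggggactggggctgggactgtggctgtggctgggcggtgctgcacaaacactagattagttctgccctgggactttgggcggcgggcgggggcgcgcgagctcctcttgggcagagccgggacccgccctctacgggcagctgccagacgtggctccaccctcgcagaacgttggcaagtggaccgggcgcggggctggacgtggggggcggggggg
Hist3h2a: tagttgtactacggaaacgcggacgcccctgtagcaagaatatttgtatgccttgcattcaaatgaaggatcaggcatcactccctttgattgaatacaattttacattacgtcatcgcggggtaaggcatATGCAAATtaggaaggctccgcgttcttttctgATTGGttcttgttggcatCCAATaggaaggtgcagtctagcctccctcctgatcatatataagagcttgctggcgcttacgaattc
Hist1h3e: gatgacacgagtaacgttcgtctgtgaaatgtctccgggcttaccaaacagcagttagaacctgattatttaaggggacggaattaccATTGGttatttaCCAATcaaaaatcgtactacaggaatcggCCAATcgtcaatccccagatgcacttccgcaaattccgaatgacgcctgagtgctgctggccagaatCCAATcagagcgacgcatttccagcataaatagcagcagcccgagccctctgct
Hist1h1e: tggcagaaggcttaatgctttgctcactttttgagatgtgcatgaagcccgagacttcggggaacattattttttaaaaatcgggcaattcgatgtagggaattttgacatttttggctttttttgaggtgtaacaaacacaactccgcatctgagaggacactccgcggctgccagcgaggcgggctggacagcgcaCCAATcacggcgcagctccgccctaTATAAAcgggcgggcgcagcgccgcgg
Hist2h2bb: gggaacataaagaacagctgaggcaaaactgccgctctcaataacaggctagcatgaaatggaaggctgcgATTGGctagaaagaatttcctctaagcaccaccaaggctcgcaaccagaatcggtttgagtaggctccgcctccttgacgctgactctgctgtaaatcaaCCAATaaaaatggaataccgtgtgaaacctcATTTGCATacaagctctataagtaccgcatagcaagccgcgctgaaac
Hist1h4f: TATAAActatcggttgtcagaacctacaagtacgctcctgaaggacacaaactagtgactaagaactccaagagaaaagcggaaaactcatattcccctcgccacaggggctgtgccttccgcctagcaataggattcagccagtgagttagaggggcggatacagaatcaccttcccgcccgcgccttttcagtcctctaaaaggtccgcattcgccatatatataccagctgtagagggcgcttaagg

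Hist1h3e held 4 CCAAT boxes and no octamer, whereas Hist3h2a and Hist2h2bb each held 2 CCAAT boxes and 1 octamer. Hist1h1e had 1 CCAAT box and 1 TATA box. Over the window of 300 bases used for counting, which includes the first 50 transcribed bases, the CCAAT box was found in 49 of 58 member promoters (84.5%), against 37.4% of all 32851 promoters of that length. It was present in all entries of classes H1 (6), H2a (16), H2b (14) and H3 (10) and in 3 of 12 H4 entries. Hist2h3c1 held its CCAAT box only after the annotated start. The octamer, known as a site of the POU factor Oct1 in H2b promoters, was in 7 of 16 H2a and 6 of 14 H2b entries and in 0 of 6 H1, 0 of 10 H3 and 0 of 12 H4 entries, against 1.74% of all promoters. Head-to-head partners share DNA, so their entries are not independent. TATAAA was in 35 of 58 member promoters (60.3%), against 13.6% of all. Matches were taken on either strand and at any position of the window, so not all lie where a TATA box would stand. The TATAAA marked in Hist1h4f lies at -250, the far end of the stretch. Among measured members with an entry, the octamer stood before 1 of 7 long models and 6 of 24 short ones, as defined below. These matches describe letters in the reference and not binding in these cells.

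Summed over all 68 models, histone transcription was lower at 48 h and slightly higher in grown-out cells than in uninduced cells. The sum was 89.99 RPM in the uninduced library (87.4 to 92.6), 57.2 at 48 h (55.1 to 59.3) and 98.6 after grow-out (95.6 to 102). The 48 h sum was 1.57-fold lower than the uninduced sum (1.501 to 1.65), and the grown-out sum 1.10-fold higher (1.05 to 1.14). A single gene weighed heavily in this: Hist2h3c1 held 28.3%, 16.0% and 21.1% of all member reads in the same order. Without it the 48 h sum was 1.34-fold lower (1.27 to 1.42) and the grown-out sum 1.21-fold higher (1.15 to 1.27).

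All 5 classes had a lower sum at 48 h, by amounts that differed widely. The H3 sum was 28.1 RPM uninduced, 11.4 at 48 h and 25.1 in grown-out cells, which at 48 h was 2.47-fold lower (2.24 to 2.73). Without Hist2h3c1 the H3 sum was 2.65, 2.24 and 4.28 RPM. Its 48 h fold was then 1.18 lower, and the interval took in no change, and its grown-out sum turned from 1.12-fold lower to 1.61-fold higher (1.28 to 2.04). H2a had 7.13, 4.0035 and 9.88 RPM, 1.78-fold lower at 48 h (1.49 to 2.13). H2b had 24.7, 15.3 and 25.2 RPM, 1.61-fold lower at 48 h (1.47 to 1.77). H1 had 23.5, 21.0 and 30.8 RPM, 1.12-fold lower at 48 h (1.03 to 1.22) and 1.31-fold higher in grown-out cells (1.21 to 1.42). H4 had 6.50, 5.43 and 7.54 RPM, 1.20-fold lower at 48 h (1.01 to 1.41), and without Hist4h4 it was 1.09-fold higher with an interval that included no change. The 48 h library was the lowest of the 3 in every class, while grown-out cells lay above uninduced ones beyond counting error in H1 and H2a. For H4 that call turned on the scaling: its grown-out interval was 0.993 to 1.36 as deposited, 1.012 to 1.387 with TMM and 1.022 to 1.401 with DESeq2 size factors.

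**Figure D1:**
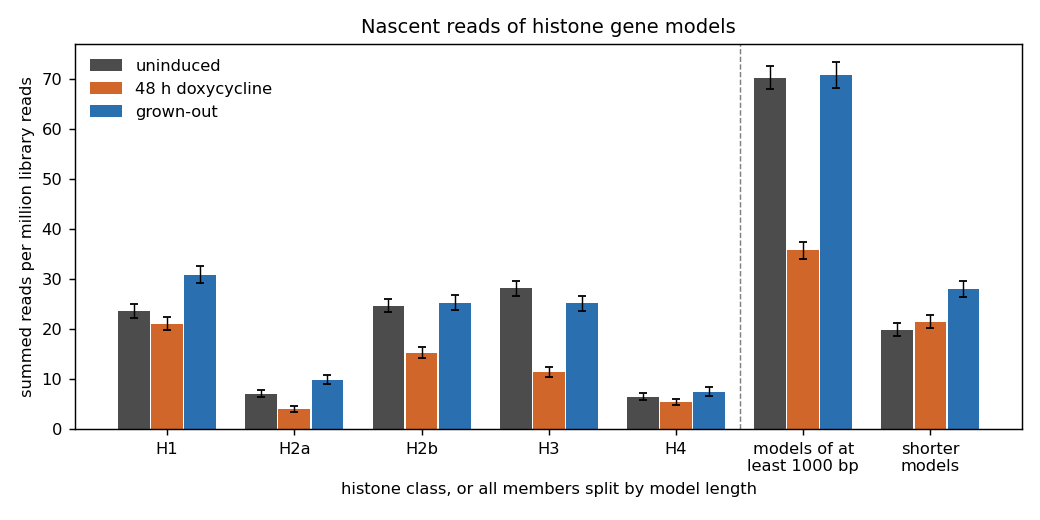
Summed RPM of histone gene models in the 3 libraries, by class and by model length, with exact Poisson 95% intervals (counting error only, 1 library per condition). Models of at least 1000 bp sum to 70.1, 35.7 and 70.7, and shorter ones to 19.9, 21.5 and 27.9.

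The 48 h difference lay in the long gene models. Members vary in how much sequence the deposited model spans: the median length was 411 bp, about that of a coding region, but 15 models were at least 1000 bp long. For 7 of these the deposited length was over 2 times that of the RefSeq gene, such as 1825 against 664 bp for Hist2h3c1, 1990 against 508 bp for Hist3h2a and 2879 against 439 bp for Hist4h4. The long models summed to 70.1 RPM uninduced (67.9 to 72.5), 35.7 at 48 h (34.0 to 37.4) and 70.7 after grow-out (68.1 to 73.3). The 53 short ones summed to 19.9 (18.7 to 21.1), 21.5 (20.2 to 22.8) and 27.9 (26.3 to 29.6). At 48 h the long sum was therefore 1.96-fold lower (1.85 to 2.08), whereas the interval of the short sum, 1.08-fold higher, included no change (0.990 to 1.18). In grown-out cells the order turned: the short sum was 1.41-fold higher than uninduced (1.29 to 1.53), and the long sum was 1.01-fold higher, which took in no change (0.959 to 1.06). Without Hist2h3c1 the long sum was still 1.68-fold lower at 48 h (1.57 to 1.803), while in the grown-out library it was 1.12-fold higher (1.05 to 1.18). The limit of 1000 bp was chosen after the values were seen.

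At 48 h the same split held in the sums within classes, though single genes weighed heavily in some of them. Long H3 models were 2.66-fold lower at 48 h (2.3998 to 2.96), long H2a 2.73-fold (2.11 to 3.54), long H2b 2.29-fold (2.03 to 2.60), the single long H4 model 1.93-fold (1.45 to 2.61) and long H1 1.23-fold lower (1.11 to 1.35). The short models of all 5 classes were 1.07 to 1.15-fold away from the uninduced sum, each with an interval that included no change. In grown-out cells the short models were higher in all 5 classes, by 2.10-fold in H3 (1.51 to 2.97), 1.55-fold in H2a (1.23 to 1.99), 1.38-fold in H1 (1.17 to 1.62), 1.32-fold in H2b (1.14 to 1.52) and 1.31-fold in H4 (1.06 to 1.60). Long models there were also higher in H1 (1.29-fold, 1.17 to 1.41) and H2a (1.30-fold, 1.09 to 1.56), so these classes did not show the split. Long models were lower in H3 (1.19-fold, 1.09 to 1.29) and H2b (1.11-fold, 1.0001 to 1.23), and the long H4 interval included no change. Counted by model, without a minimum level, 11 of 13 long models with at least 1 read in both libraries were lower beyond counting error at 48 h and 0 higher, against 2 lower and 1 higher of 38 short ones. Of all 7915 measured models of the files, nearly all of them long, 30% were lower and 30.1% higher by the same rule. Most short models have few reads, and such a model can be lower without showing it. Of the measured members with at least 50 reads on average, 7 of 8 long and 0 of 4 short ones were lower. Over all genes, 30.3% of the 7798 measured models of at least 1000 bp were lower and 30.3% higher at 48 h, with a median log2 ratio of 0.00. Of the 117 shorter ones, the members among them, 8.55% were lower and 15.4% higher, with a median of 0.08. The part of model length in the histone values was not tested.

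**Figure D2:**
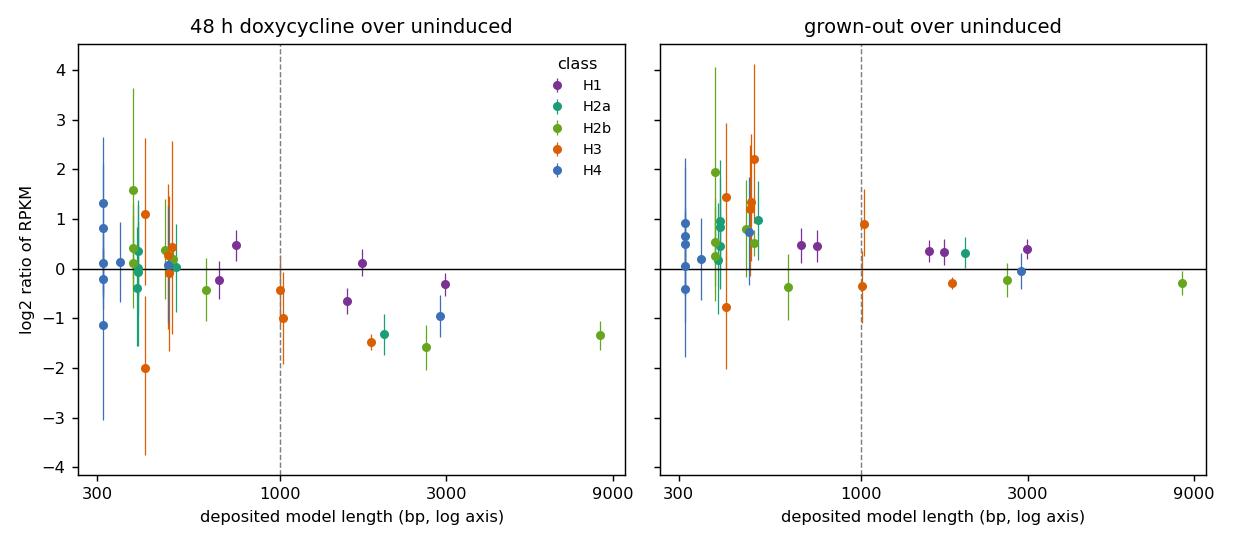
Log2 ratio of RPKM against the deposited model length (log axis) for the 35 measured histone models, for 48 h (left) and grown-out cells (right) over uninduced cells; bars are 95% counting intervals and the dashed line is at 1000 bp. At 48 h the models past 1000 bp lie mostly below 0, with 8 of 10 lower beyond counting error, and in grown-out cells they lie on both sides.

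Hist2h3c1, an H3 gene and the member with most reads (chromosome 3, 96050608 to 96052432 as the files give it, plus strand), had 1300.1, 443.67 and 867.67 reads without induction, after 48 h and after grow-out. Its level was 14.0 RPKM (13.2 to 14.7), 5.02 (4.57 to 5.51) and 11.4 (10.7 to 12.2). The 48 h library stood apart below the others, 2.78-fold under the uninduced one (2.49 to 3.10). After grow-out the gene was 1.22-fold under the uninduced level (1.12 to 1.33). Its neighbour Hist2h3c2-ps is named as a pseudogene in the files, but its RefSeq match, H3c15, has no such suffix. Hist2h3c2-ps had 0.639, 0.322 and 1.19 RPKM on 33.25, 15.92 and 50.67 reads. It was 1.98-fold lower at 48 h (1.05 to 3.81) and 1.87-fold higher in grown-out cells (1.20 to 3.03).

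Among the H2a and H2b genes, 3 measured long models followed the same course. Hist2h2be (chromosome 3, 96025044 to 96027661, plus strand) had 1.33, 0.442 and 1.14 RPKM and was 3.00-fold lower at 48 h (2.21 to 4.13). Hist1h2bc (chromosome 13, 23776068 to 23784349, plus strand) had 0.840, 0.333 and 0.687 RPKM and was 2.52-fold lower (2.07 to 3.12). Hist3h2a (chromosome 11, 58768187 to 58770176, plus strand) had 1.77, 0.705 and 2.21 RPKM and was 2.51-fold lower (1.88 to 3.35). In all 3 genes the 48 h interval lay below both others. In grown-out cells Hist3h2a was 1.25-fold higher than uninduced (1.01 to 1.55) and Hist1h2bc 1.22-fold lower (1.03 to 1.45), while the interval of Hist2h2be included no change. The long models under the minimum level went the same way at 48 h. Hist1h2ac, with 59, 15 and 70 reads, was 3.73-fold lower (2.09 to 7.09). Hist1h2bp with 25, 7 and 27 reads and Hist1h2be with 337, 174 and 271 reads, both named after their values were seen, were 3.39-fold (1.43 to 9.28) and 1.84-fold (1.53 to 2.22) lower. The Hist1h2be model spans 36958 bp of counted length, so its low density of 0.179, 0.0972 and 0.176 RPKM is not that of a compact gene. Hist4h4, the H4 gene on chromosome 6 (136750074 to 136752952, minus strand), had 0.999, 0.517 and 0.971 RPKM and was 1.93-fold lower at 48 h (1.45 to 2.61).

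The linker histone genes were among the most densely transcribed members and differed from each other at 48 h. Hist1h1a had 3.955 RPKM uninduced, 5.48 at 48 h and 5.43 in grown-out cells, and was the 1 measured member higher beyond counting error at 48 h, by 1.39-fold (1.11 to 1.72). Hist1h1c had 4.09, 2.60 and 5.22 RPKM and was 1.58-fold lower at 48 h (1.32 to 1.89). Hist1h1d had 2.38, 1.91 and 3.12 RPKM and was 1.24-fold lower (1.06 to 1.46). Hist1h1b with 3.77, 3.23 and 5.21 RPKM and Hist1h1e with 2.67, 2.89 and 3.36 RPKM had 48 h intervals that included no change. In grown-out cells all 5 measured H1 genes were higher beyond counting error (33.6% of all measured models were), by 1.26-fold for Hist1h1e to 1.38-fold for Hist1h1b. The testis H1 gene Hist1h1t had at most 1 read in any library.

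The most transcribed short core histone gene was Hist2h2bb, an H2b gene on chromosome 3, with 8.75 RPKM uninduced (7.63 to 9.98), 9.96 at 48 h (8.74 to 11.3) and 12.5 after grow-out (11.04 to 14.2). It stands downstream of Hist2h3c1 in the same cluster and did not share its course: its 48 h interval included no change (1.14-fold higher, 0.945 to 1.38), and in grown-out cells it was 1.43-fold higher (1.19 to 1.72). Among H4 genes, all of which encode the same protein, the highest were Hist1h4f with 2.86, 3.11 and 4.48 RPKM and Hist1h4d with 3.47, 3.01 and 3.58 RPKM. Hist1h4f was 1.57-fold higher in grown-out cells (1.03 to 2.33). Hist2h4 had 1.58, 1.72 and 1.79 RPKM. Among short H2a genes Hist1h2ab had 0.922, 0.939 and 1.804 RPKM and Hist1h2ak 0.978, 1.25 and 1.901 RPKM, higher in grown-out cells by 1.96-fold (1.13 to 3.38) and 1.94-fold (1.05 to 3.52). The other measured short H2a genes, Hist1h2af (1.10, 1.12 and 1.51 RPKM), Hist1h2ai and Hist2h2ac, had grown-out intervals that included no change. Hist1h2bm and Hist1h2bg, the next H2b genes by level, had 1.13, 1.52 and 1.64 RPKM and 1.67, 1.23 and 1.29 RPKM, with all intervals including no change. Neighbouring levels among these short genes mostly overlap in their counting intervals, so the order below Hist2h2bb is not firm.

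**Figure D3:**
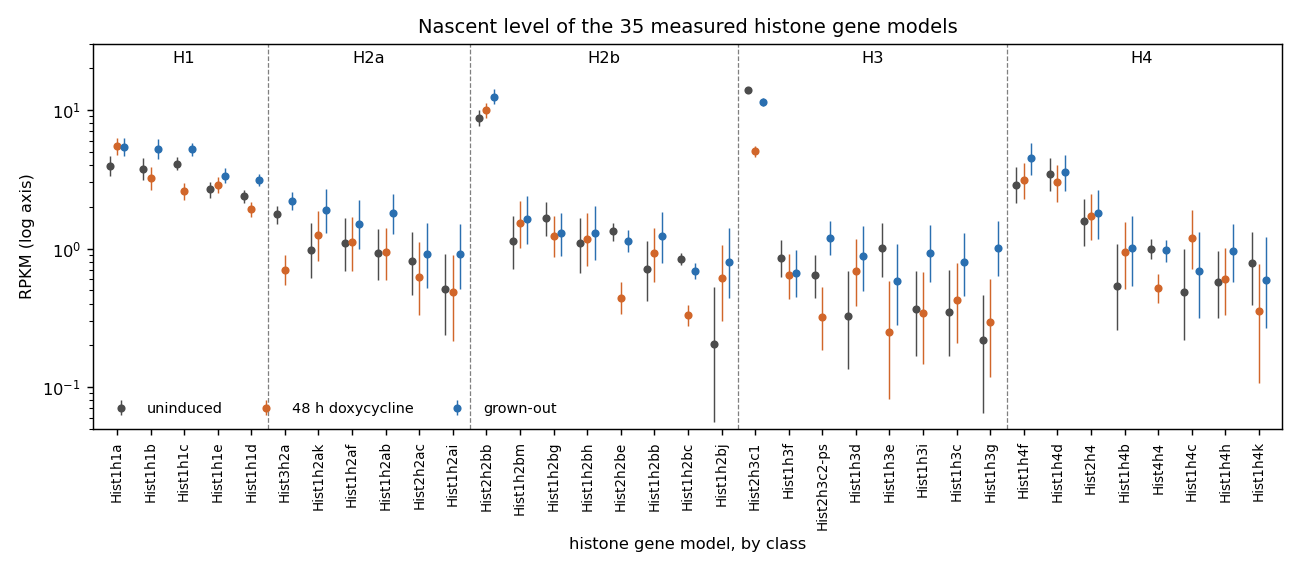
RPKM (log axis) of each of the 35 measured histone models in the 3 libraries, grouped by class and ordered by mean level, with exact Poisson 95% intervals. Hist2h3c1 and Hist2h2bb stand highest, and the 48 h value falls clearly below the others in models such as Hist2h3c1, Hist2h2be, Hist1h2bc and Hist3h2a.

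At 48 h, 5 of the 35 measured members were past 2-fold lower, against 0.72% of all 7915 measured models, and 0 were past 2-fold higher (0.0253% of all models). Besides Hist2h3c1, Hist2h2be, Hist1h2bc and Hist3h2a these included Hist1h3e, a short H3 model with 21, 5 and 10 reads, 3.99-fold lower with a wide interval (1.46 to 13.5), which passed the minimum level only through the uninduced library. Beyond counting error 9 were lower and 1 higher, against 30% and 30.1% of all models. Members have far fewer reads than most genes (23 of 35 had under 50 on average, whereas the median measured model had 2038 in the uninduced library), so small differences are harder to see among them. The median log2 ratio of the measured members was 0.02, beside 0.00 for all models, since 25 of 35 are short models. It was -0.89 for the 10 long members and 0.12 for the 25 short ones. With a pseudocount of 0.5 RPKM 1 member was past 2-fold, and without the minimum level 8 of the 50 with at least 1 read in both libraries were, all of them lower. Hist1h3a, left out there for its 0.5 reads in the uninduced library, was past 2-fold higher on 11 reads at 48 h.

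In grown-out cells, 4 measured members were past 2-fold higher (0.164% of all models), and 0 past 2-fold lower (0.708% of all models). They were short H3 and H2b models on few reads. Hist1h3g had 5.44, 7 and 20.6 reads and was 4.64-fold higher (1.89 to 17.5). Hist1h2bj had 4, 11.3 and 12.6 reads and was 3.87-fold higher (1.23 to 16.8). Hist1h3d with 6.81, 13.8 and 15.1 reads was 2.71-fold higher (1.01 to 7.61), and Hist1h3i with 9, 8 and 18.6 reads 2.54-fold higher (1.12 to 6.49). Their mean levels of 0.505 to 0.633 RPKM lay near the minimum. Hist1h3g, Hist1h2bj and Hist1h3i passed it only through the grown-out library, since the mean of the other two was below 0.5 RPKM, so their count beside the share of all models supports nothing. Beyond counting error 15 of 35 were higher and 2 lower, against 33.6% and 29.5% of all models. The higher ones include Hist1h3g, Hist1h2bj, Hist1h3i and Hist2h3c2-ps, which passed the minimum only through the grown-out library. This count beside the share of all models therefore supports nothing either. The lower ones were Hist2h3c1 and Hist1h2bc. The median log2 ratio was 0.45, beside 0.01 for all models, and 27 of 35 ratios were above 0. Both values include the members that passed only through the grown-out library, and carry the same limit. None of the 12 members with at least 50 reads was past 2-fold; 8 of them were higher and 2 lower beyond counting error.

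Set directly against the 48 h library, which shares its libraries with the comparisons above, the grown-out library had 6 of 35 measured members past 2-fold higher (0.708% of all models) and 0 lower (0.316%). Beyond counting error 13 were higher and 0 lower, against 35.6% and 32% of all models. The 6 were Hist2h3c2-ps at 3.70-fold, Hist1h3g at 3.42-fold, Hist3h2a at 3.13-fold, Hist1h3i at 2.71-fold, Hist2h2be at 2.58-fold and Hist2h3c1 at 2.27-fold. They are the genes that were low at 48 h or high in grown-out cells, so this is not separate evidence. Hist2h3c2-ps, Hist1h3g and Hist1h3i passed the minimum level only through the grown-out library.

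By chromosome and in the same order of libraries, the Hist1 cluster had 48.5, 37.7 and 58.9 RPM, 1.29-fold lower at 48 h (1.21 to 1.37) and 1.22-fold higher in grown-out cells (1.15 to 1.29). The Hist2 cluster had 34.9, 16.5 and 32.3 RPM and was 2.12-fold lower at 48 h (1.94 to 2.30). The Hist3 models had 3.75, 1.496 and 4.56 RPM and were 2.51-fold lower at 48 h (1.91 to 3.35). In grown-out cells the Hist2 sum was 1.08-fold lower (1.01 to 1.16), a call lost with TMM (ratio 0.944, 0.879 to 1.014) and DESeq2 scaling (0.9535, 0.888 to 1.024), and 1.22-fold higher without Hist2h3c1 (1.07 to 1.39). Within chromosome 13 the members fell into 4 runs with gaps of over 100 kb, holding 18, 5, 29 and 2 models. Run 1 had 4.83, 4.21 and 7.14 RPM, with a 48 h interval that included no change and a grown-out sum 1.48-fold higher (1.25 to 1.76). Run 3, which holds most long models of the chromosome, had 43.3, 33.0 and 51.0 RPM and was 1.31-fold lower at 48 h (1.23 to 1.399). Run 4 is the testis pair Hist1h2aa and Hist1h2ba at 0 reads, for which the exact Poisson interval ends at 0.0723, 0.0762 and 0.0886 RPM.

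**Figure D4:**
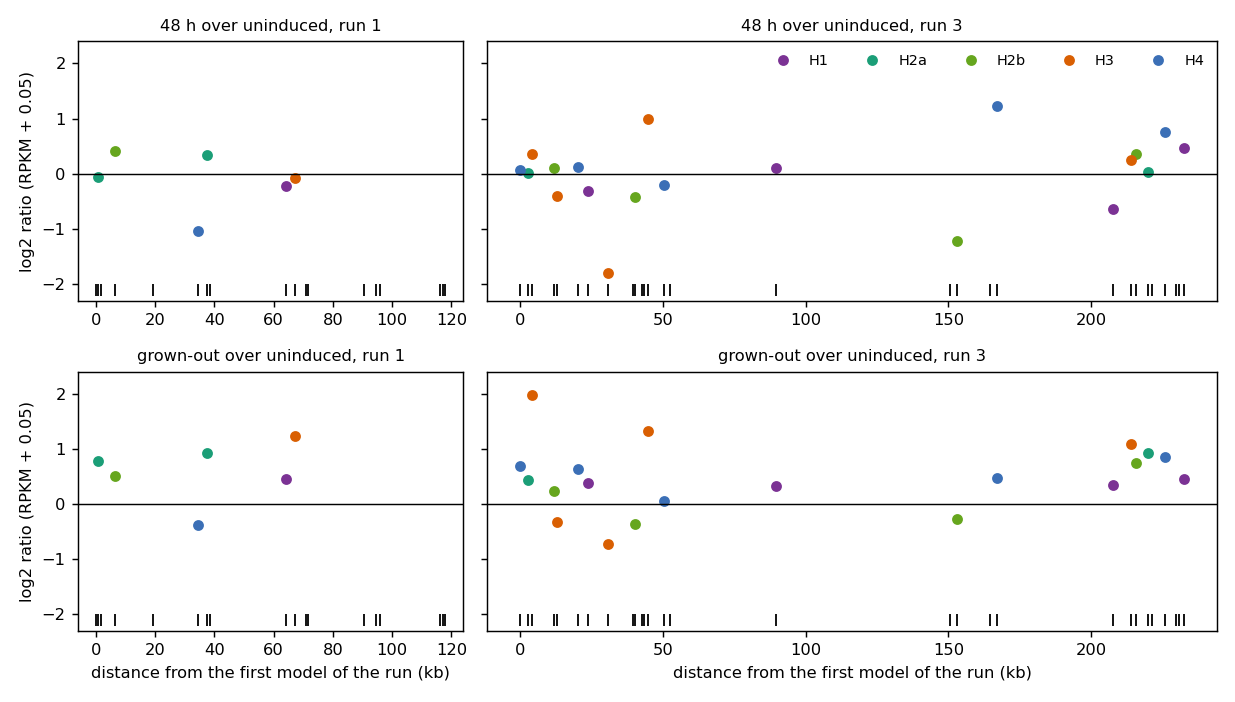
Log2 ratio of RPKM plus 0.05 of the measured members in runs 1 and 3 of chromosome 13, by distance in kb from the first model of the run; ticks mark every member, and colours mark the class. At 48 h (top) members with ratios below and above 0 stand side by side, and in grown-out cells (bottom) most points lie above 0.

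Genes around the Hist1 and Hist2 clusters had small median differences, with some lower at 48 h. Medians over genes are not comparable with the histone sums, in which a few members weigh most. The measured members had median log2 ratios of 0.07 at 48 h and 0.46 in grown-out cells on chromosome 13. On chromosome 3 theirs were -0.63 and 0.17. The grown-out medians carry the limit of the minimum level given above. Of 15 measured genes that are not histones within 1 Mb of the Hist1 cluster or inside it, the median log2 ratio was -0.04 at 48 h and -0.10 in grown-out cells. Of the 4 inside its span, Zfp184, Zfp322a, Abt1 and C230035I16Rik, 0 were higher in either comparison and 3 were lower beyond counting error in each, where 30% and 29.5% of all models were. Their median log2 ratios were -0.21 at 48 h and -0.29 in grown-out cells. At 48 h this is the direction of the Hist1 sum, and in grown-out cells the opposite one. The 28 genes around the Hist2 cluster had medians of -0.06 and -0.04. At 48 h 9 of them were lower and 5 higher. Of these Txnip, which encodes a thioredoxin-interacting protein and was named after its values were seen, was past 2-fold lower in both conditions, with log2 ratios of -1.87 at 48 h and -1.98 in grown-out cells. Over chromosome 13 as a whole, the 311 measured genes that are no members had a median of 0.12 in grown-out cells, and 55.6% of them were higher beyond counting error against 33.6% of all models. The part of such a chromosome-wide difference in the values of the Hist1 genes was not tested.

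Few divergent H2a and H2b pairs had enough reads to compare the ratios of their partners. Of 13 such pairs, with 167 to 334 bp between the models, 7 had a measured partner and 1 had both measured. In the pair with most reads, Hist1h2ac and Hist1h2bc, both partners were low at 48 h, with log2 ratios of -1.56 and -1.22. In the pair Hist2h2ac and Hist2h2be, the short H2a partner had 16.2, 11.7 and 14.9 reads and a 48 h log2 ratio of -0.37 with an interval that included no change, whereas the long H2b partner had one of -1.49. As folds lower, their intervals overlapped (0.562 to 2.93 and 2.21 to 4.13). Hist1h2ae and Hist1h2bg had 48 h ratios of -0.37 and -0.43, both within counting error. Hist3h2a had 179.4 reads uninduced, and its partner Hist3h2bb-ps, named as a pseudogene, 0. Hist1h2ak had 19.6, 23.7 and 31.1 reads while its partner Hist1h2bn was at 0 throughout. Hist1h2ai and Hist1h2bl had 10.2 and 8.13 reads uninduced, and grown-out ratios of 0.77 and -0.11, both within counting error. For short partners the read numbers are too low to tell whether a difference between them is real.

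Histone variant genes outside the clusters, which are polyadenylated and not tied to DNA copying (H2afx gives both forms of transcript), numbered 11 here, of which 9 were measured. At 48 h 6 of these lay below the uninduced level beyond counting error (30% of all models did) and 1 above it (30.1%). Their median log2 ratio was -0.24, and 0 passed 2-fold. H2afx, whose protein is phosphorylated at DNA breaks, had 2.46, 1.38 and 2.67 RPKM and was 1.78-fold lower at 48 h (1.38 to 2.33). H1f0, a linker histone of resting and differentiated cells, had 5.73, 3.56 and 5.37 RPKM and was 1.61-fold lower (1.42 to 1.83). H3f3b, which encodes H3.3, had 21.8, 14.1 and 16.8 RPKM and was 1.55-fold lower (1.46 to 1.64), and H3f3a, which encodes the same protein, was 1.19-fold lower (1.14 to 1.24). H2afz had 13.4, 13.1 and 14.9 RPKM, with a 48 h interval that included no change. In grown-out cells 4 of the 9 were lower and 1 higher (29.5% and 33.6% of all models), H3f3a, H3f3b and H2afv (1.37-fold) among the lower and H2afz 1.11-fold higher. H2afy2, under the minimum level, had 143, 136 and 34 reads and was 3.43-fold lower in grown-out cells (2.35 to 5.15). With 0.05 RPKM added its log2 ratio was -0.72, so it was not called past 2-fold.

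Of 27 measured genes that transcribe and process histone mRNA, 7 were higher and 6 lower beyond counting error at 48 h, 9 higher and 4 lower in grown-out cells, and 0 past 2-fold in either. Of all models 30.1% and 30% were so at 48 h, and 33.6% and 29.5% in grown-out cells. Slbp, the stem-loop binding protein, had 7.14, 5.94 and 7.28 RPKM and was 1.20-fold lower at 48 h (1.15 to 1.26). Npat, the coactivator of histone transcription at histone locus bodies, had 5.34, 5.47 and 4.95 RPKM, and Casp8ap2 (FLASH), a part of the cleavage machinery there, 2.63, 2.80 and 2.67 RPKM. Lsm11, a protein of the U7 particle that directs the cleavage, had 0.7003, 0.581 and 0.879 RPKM and was 1.26-fold higher in grown-out cells (1.12 to 1.41), and its partner Lsm10 was under the minimum level. Ccne2, a cyclin of entry into S phase, was 1.38-fold lower at 48 h and 1.15-fold higher in grown-out cells. Hinfp, an activator of H4 genes, was 1.26-fold lower in grown-out cells, and Ncbp1, a cap-binding protein, 1.22-fold higher.

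Among genes of DNA replication, more were higher than lower in grown-out cells, by small amounts. Of 41 measured S phase genes, 21 were higher and 2 lower beyond counting error in grown-out cells, with a median log2 ratio of 0.09, and at 48 h 12 were higher and 16 lower, with a median of -0.02. Over all models, 33.6% were higher and 29.5% lower in grown-out cells, and 30.1% and 30% at 48 h, which is also the background of the other lists here. Pcna, the sliding clamp of replication, had 14.2, 11.01 and 14.6 RPKM and was 1.29-fold lower at 48 h (1.22 to 1.37). Rrm2, a subunit of ribonucleotide reductase, was 1.52-fold lower at 48 h, and Uhrf1, which helps copy DNA methylation, 1.36-fold lower. In grown-out cells Ung, a uracil glycosylase, was 1.65-fold, Uhrf1 1.30-fold and Pola2 1.30-fold higher. Of 25 measured G2 and M phase genes, 5 were higher and 12 lower at 48 h and 10 higher and 6 lower in grown-out cells. Histone chaperones had 12 of 20 higher and 2 lower in grown-out cells and 9 higher and 7 lower at 48 h. Npm3 was 1.94-fold higher in grown-out cells and 1.91-fold higher at 48 h, and Npm1 1.35-fold higher in grown-out cells. No measured gene of these lists was past 2-fold. The share of cells in S phase was not measured, so fewer transcribing cells and less transcription per cell cannot be told apart.

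The libraries carried the markers of an epithelial line: Krt8, Krt18, Krt19, Cdh1 and Spp1 were measured, while Epcam was under the minimum. Their levels were not all steady: Spp1, which encodes osteopontin, had 98.6, 39.997 and 32.3 RPKM and was past 2-fold lower in both conditions, and Krt19 was 1.70-fold lower at 48 h and 1.35-fold lower in grown-out cells. Fibroblast markers summed to 2.82, 2.31 and 1.87 RPM, endothelial ones to 4.91, 4.72 and 3.24, acinar ones to 1.24, 1.09 and 1.20, and immune ones to 1.74, 1.61 and 1.57. Of the 5 immune markers 1 met the minimum level too, and of the fibroblast, endothelial and acinar ones 0 did. Csf1r, Lum, Cpa1 and Amy2a5 were at 0 in all libraries, and their part in the histone values was not tested.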

How the data were processed

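One Bru-seq library per condition was used. Per the submitters' processing notes, the tools were bedtools 2.16.2, TopHat 1.4.1, Bowtie 0.12.8 and CASAVA 1.8.2, with settings not given in the sources used here. Reads per gene model were deposited under the header of read counts and taken here as estimated counts, since the deposited values hold parts of a read in steps of 1/52, as from reads lying partly in a model; of member counts above 0, 27.3% to 42.9% were whole within 0.01. The deposited RPKM values were used as given. In some models, Hist1h1e and Hist1h2be among them, the counted length is shorter than the span. The notes name build hg19, but the models carry mouse symbols, and the last one on chromosome 1 ends at 197002909, past the last GRCm38 gene; model positions are as in the files (start made 1-based), with their build not given. Promoters are RefSeq GRCm38.p6.

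Ratios, intervals and sums were computed in Python 3.11.15 with scipy 1.17.1, and scaling factors with edgeR 4.0.16 and DESeq2 1.42.0. Counts were rounded to whole reads for intervals. Of all models, 138 with repeated symbols or spanning over 3 Mb were left out of the comparisons by model. The calculation of intervals and calls was tested on simulated data. Named members were those past 2-fold, up to 10 per direction by interval bound, the highest 2 per class and cluster, and partners of 6 divergent pairs; in the lists, up to 3 with the largest ratio and 10 fixed genes. Not every gene that this rule takes is described. The members and lists were chosen with earlier results of these data known.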

Additional observations from a re-analysis of the deposited data

Results flagged for a closer look

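In 4 members the 2 doxycycline conditions lay on opposite sides of the same uninduced library, each beyond counting error. The difference between the conditions was not tested, since each has 1 library, and both ratios share the uninduced one. For Hist3h2a the log2 ratio was -1.27 at 48 h and 0.31 in grown-out cells. For Hist2h3c2-ps it was -0.89 and 0.85, for Hist1h1c -0.65 and 0.35, and for Hist1h1d -0.30 and 0.39. All 4 are models of at least 1000 bp.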

How the results depend on the processing

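No paired analysis was possible because each condition had 1 library. TMM and DESeq2 scaling moved no library by more than 0.023 on the log2 scale, and both left each count, median and sum over all members within its limits (1.5 times for counts, 0.1 for medians, the counting interval for sums). In grown-out cells they changed calls on smaller sums: H4 and chromosome 11 (1.011 to 1.527 with TMM, 1.021 to 1.542 with DESeq2) became higher beyond counting error, and the chromosome 3 call was lost. At 48 h the lower bound of the short sum was 0.9988 with TMM and 1 with DESeq2. Leaving out members that overlap another model removed none, since no member row overlaps another as deposited, so this setting could change nothing. Past 2-fold at 48 h were 1 of 35 members with a pseudocount of 0.5, 8 of 50 with no minimum but at least 1 read in both libraries, 1 of 9 with a mean of at least 2 RPKM and 1 of 5 with whole reads in all libraries, against 5 of 35. Beyond counting error at 48 h were 4 of 9 with at least 2 RPKM and 1 of 5 with whole reads. The 48 h median turned to -0.0695 with no minimum, -0.20 at 2 RPKM and -0.48 with at least 50 reads, and was 0.12 with whole reads. Of the 12 members with at least 50 reads, 8 are long models.

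In grown-out cells, past 2-fold were 1 with a pseudocount of 0.5 and 0 at 2 RPKM, with whole reads or with at least 50 reads. Beyond counting error were 8 of 9 at 2 RPKM, 0 of 5 with whole reads and 10 of 12 with at least 50 reads. The median was 0.33 with a pseudocount of 0.5 and 0.34 with at least 50 reads. For grown-out against 48 h, past 2-fold were 3 with a pseudocount of 0.5, 1 at 2 RPKM, 0 with whole reads and 3 with at least 50 reads. Beyond counting error were 5 at 2 RPKM and 0 with whole reads, and the median was 0.40, 0.39 and 0.77 with a pseudocount of 0.5, whole reads and at least 50 reads.

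The ratio of summed reads was 0.744 at 48 h without Hist2h3c1 and 0.590 over 22 members with whole reads, 1.205 in grown-out cells without it, and 1.62 and 1.86 for grown-out against 48 h. Sums that turned were H4 at 48 h (1.088 without Hist4h4, 1.079 with whole reads), the chromosome 3 sum at 48 h (1.091 with whole reads), H3 in grown-out cells (1.615 without Hist2h3c1) and chromosome 3 in grown-out cells (1.221 without Hist2h3c1, 1.138 with whole reads); the cause was not tested beyond these removals. The long sum at 48 h, chosen after seeing the data, had a ratio of 0.558 with a limit of 600 bp and 0.533 with 2000 bp, against 0.509. The short sum was 1.10 with 600 bp but 0.682 with 2000 bp, which places Hist2h3c1 among short models. Under 50 reads, the counting interval alone spans several-fold.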

Other observations

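Members below the minimum level also held large ratios on few reads. Hist1h3a had 0.5 reads uninduced, 11 at 48 h and 6 in grown-out cells, and Hist1h4j had 2.31, 4.81 and 8.71 reads, with both named after their values were seen. In the same order, for Hist1h2an, the short partner of the long Hist1h2bp model, the reads were 4.81, 1 and 8.98.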
